A study of Homo sapiens with 3 samples.

Results

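The genes described here encode the machinery that loads, fires and runs DNA replication origins and forks in human cells. They are 53 genes taken by symbol from a read count table of 47971 distinct gene symbols, and every symbol was found on a single row. The table holds 3 RNA sequencing libraries of HCT116 cells, an established line from a human colon carcinoma, and each group has 1 library. The untreated group is the only control. The CDK4 siRNA group was transfected for 24 h with a small interfering RNA against the mRNA of the cyclin D-dependent kinase CDK4. The palbociclib group was exposed for 24 h to 1 µM of palbociclib, an inhibitor of CDK4 and CDK6. Cultures with a control siRNA or with drug solvent were not analysed here. Each value is therefore from 1 culture, no test between groups was possible, and brackets hold 95% intervals for counting error only.

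Replication is prepared in G1. The origin recognition complex (ORC) with CDC6 and CDT1 loads the ring-shaped MCM helicase onto origins, a step that geminin blocks later in the cycle. In S phase the CDC7-DBF4 kinase and its helpers add CDC45 and GINS to the ring, and the polymerases, the PCNA clamp and the RFC clamp loader follow. Many of these genes are known targets of E2F transcription factors, which the retinoblastoma protein restrains until cyclin-dependent kinases, among them CDK4 and CDK6, phosphorylate it.

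Depth was similar, at 20313597 reads in the untreated library, 18349355 after siRNA and 18020870 after palbociclib. The siRNA target, CDK4, was at 0.42 of its untreated level in the siRNA library (0.391 to 0.451). In the palbociclib library it was at 0.686 (0.643 to 0.732). Of 7 epithelial marker genes, KRT8, KRT18, KRT19, EPCAM and CDH1 had reads in every library, CDX1 had none in any and VIL1 had 5 reads, all with palbociclib. Of 12 markers of blood, fibroblast and endothelial cells 11 were in the table. They summed to 15.3, 22.9 and 9.55 CPM (reads scaled to a common library size, with the TMM factors given below) in the order above. All but 12, 18 and 14 of their reads came from COL1A1. PTPRC, CD3E, COL1A2 and CDH5, which define such cells, had no reads. The palbociclib library also differed in composition. Mitochondrially encoded mRNAs took 6.53% of its reads, while untreated cells had 4.02% and siRNA cells 3.85%, the nuclear RNA MALAT1 had 13502 reads against 1355 and 2211, and the proliferation marker MKI67 had 4166 against 12853 and 12886. Their part in the values given next was not tested.

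As a group, the replication genes were lower with palbociclib and near the untreated level with siRNA. They took 0.684% of all reads in the untreated library, 0.684% with siRNA and 0.37% with palbociclib. Genes were called lower or higher by size alone, when the log2 of the CPM ratio, with a prior count of 2, reached 1 in either direction and the interval excluded 1. Genes with a mean of at least 1 CPM were compared, which left 12689 genes and all 53 members. With palbociclib 20 members met this size rule, all of them lower. That is 37.7% lower, against 13.6% lower and 10% higher of all genes compared. The intervals of 47 members lay below 1 and those of 3 above, which is 88.7% and 5.66% of them, against 41.9% and 36% of all genes. The median log2 ratio of the members was −0.86, and the median of all genes was −0.07. With siRNA no member passed the size rule, where 0.118% of all genes were lower and 1.1% higher. The median log2 ratio with siRNA was −0.06, against −0.02 for all genes. The siRNA intervals of 24 members lay below 1 and those of 5 above, or 45.3% and 9.43%, against 23.7% and 17.7% of all genes. Such shares also depend on read number, because an interval excludes 1 more readily where reads are many. Every member had a mean of at least 8.2 CPM, while all genes compared reach down to 1 CPM. With total counts the siRNA median was −0.0071 for the members and 0.034 for all genes. In bulk RNA, fewer cells in S phase and less of an mRNA per cell cannot be told apart.

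**Figure D1:**
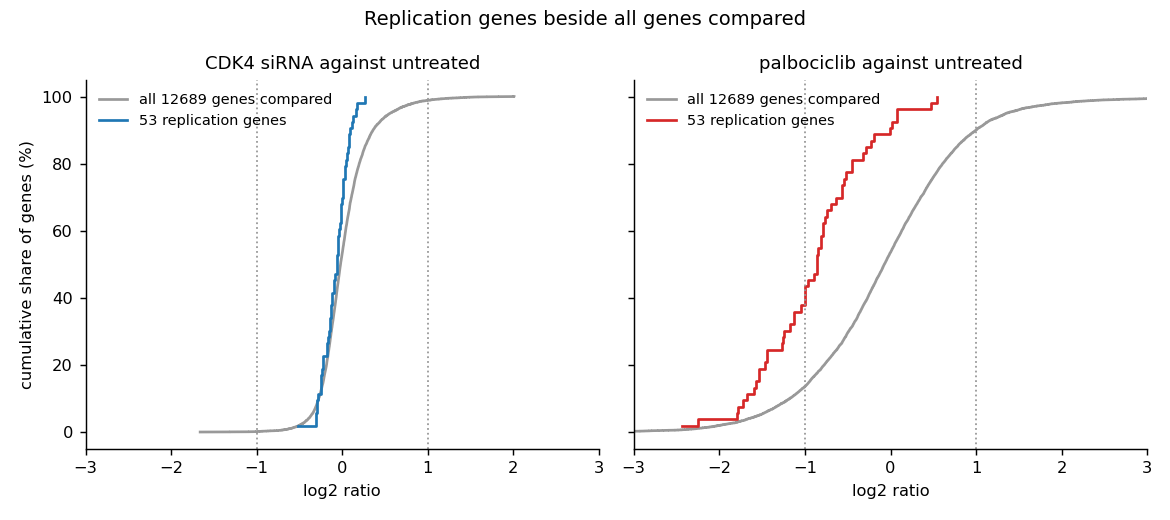
Cumulative share of genes (y axis, in percent) by log2 ratio (x axis) for siRNA on the left and palbociclib on the right, with all 12689 genes compared in grey, the 53 replication genes in colour and dotted lines at the size rule. With siRNA the curves lie close together, while with palbociclib the replication genes lie to the left, around a median of −0.86 against −0.07.

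How far the palbociclib values reach depends on how the libraries are scaled. The main scaling was TMM, which gave factors of 1.03, 1.07 and 0.901. With scaling by total counts, or with the deposited FPKM, 31 members were lower by the size rule. The share of all genes that were lower rose too, from 13.6% to 19.1% with total counts and 19.6% with FPKM, and the median of all genes moved to −0.27. Among all genes past the rule the higher ones were then 25.7% and 25.8%, in place of 42.4%, and with upper quartile factors they were 52.6%. The median of the members differed from that of all genes by −0.78 on the log2 scale. By construction a scaling moves all genes of a library alike, so this distance cannot tell the scalings apart.

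The genes were taken by symbol and not by promoter sequence. Many are known E2F targets, however, so a high share of E2F-type motifs among them could be foreseen and is a description only. The RefSeq promoter windows of build GRCh38.p14, from 250 bases before to 50 bases after the first listed gene start, were found for 47 of the 53 members. MCM4, MCM5, GINS4, POLD3, RPA2 and RPA3 had none. The windows found were read as follows. They were searched on both strands for an E2F-type motif, spelled TTTGGCGC, TTTCCCGC, TTTGCCGC or TTTCGCGC. A match was present in 20 of the 47 windows, or 42.6%, against 3.33% of the 27305 promoters in the table and 5.4% of the 8977 compared genes with a promoter. Counting any listed start of a gene, the shares were 51.1% of the members and 3.99% of all genes. A second motif of cell cycle promoters, the CHR element spelled TTTGAA or TTCGAA, was in 2 of the 47 windows, or 4.26%, against 16.6% of all promoters and 10.6% of those of compared genes. The E2F-type spellings are richer in G and C than the CHR spellings. Member windows ranged from 38.3% G and C for PRIM2 to 78.3% for GINS2, and no share was adjusted for base composition. A match describes these letters in these windows and is neither a bound site nor a cause.

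Members with and without the E2F-type match overlapped widely in their palbociclib ratios. Of the 20 with a match 10 were lower by the size rule, with a median log2 ratio of −1.01. Of the 27 without a match 8 were lower, with a median of −0.85. This split uses the first listed start only. Counting any listed start 24 members had a match, so some of the 27 have one at another start. Among all compared genes with a promoter 17.1% of those with a match and 13.2% of those without were lower. The motif was thus more frequent among replication genes than in the table as a whole, while its presence marked off the lower members only loosely.

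The following stretches show that range. Each is the 160 bases before the gene start, 5′ to 3′ on the strand of the gene, with the matches in capitals; a match on the opposite strand appears as its reverse complement, such as GCGGGAAA. POLA2 (chr11:65261802-65261961, plus strand), POLE4 (chr2:74958483-74958642, plus) and GINS2 (chr16:85688955-85689114, minus) had the lowest palbociclib ratios among members whose match lies wholly before the start. MCM6 (chr2:135876444-135876603, minus) had the most matches, 4 in 2 stretches where matches on opposite strands overlap. CDT1 (chr16:88803629-88803788, plus) held a match and was not lower. ORC6 (chr16:46689499-46689658, plus) and UNG (chr12:109097437-109097596, plus) had the highest ratios and no match.
POLA2: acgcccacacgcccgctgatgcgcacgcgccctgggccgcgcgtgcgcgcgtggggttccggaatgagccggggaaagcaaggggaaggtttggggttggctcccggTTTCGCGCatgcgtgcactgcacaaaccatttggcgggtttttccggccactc
POLE4: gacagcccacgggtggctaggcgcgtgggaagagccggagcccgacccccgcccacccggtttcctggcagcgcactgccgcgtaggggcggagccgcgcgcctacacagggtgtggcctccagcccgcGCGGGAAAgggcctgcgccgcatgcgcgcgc
GINS2: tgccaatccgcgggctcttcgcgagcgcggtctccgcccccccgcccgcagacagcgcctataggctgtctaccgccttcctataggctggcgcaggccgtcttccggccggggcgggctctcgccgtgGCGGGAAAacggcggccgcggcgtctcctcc
MCM6: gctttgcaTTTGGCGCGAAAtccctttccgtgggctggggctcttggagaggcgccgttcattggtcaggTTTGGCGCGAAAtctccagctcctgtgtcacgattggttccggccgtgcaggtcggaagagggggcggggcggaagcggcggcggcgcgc
CDT1: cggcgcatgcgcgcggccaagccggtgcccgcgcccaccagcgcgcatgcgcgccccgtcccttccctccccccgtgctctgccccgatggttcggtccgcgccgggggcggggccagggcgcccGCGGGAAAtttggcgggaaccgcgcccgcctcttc
ORC6: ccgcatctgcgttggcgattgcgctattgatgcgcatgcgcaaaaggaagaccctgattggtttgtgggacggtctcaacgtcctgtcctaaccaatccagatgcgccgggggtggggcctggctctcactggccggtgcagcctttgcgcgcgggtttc
UNG: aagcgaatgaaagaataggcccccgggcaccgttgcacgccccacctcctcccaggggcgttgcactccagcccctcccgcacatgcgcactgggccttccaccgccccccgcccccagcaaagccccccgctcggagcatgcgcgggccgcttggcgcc

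**Figure D2:**
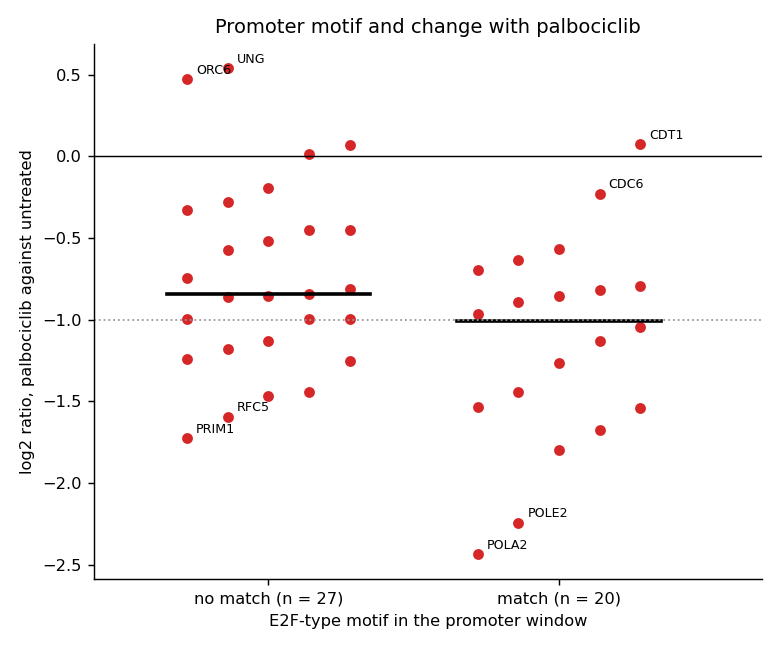
Log2 ratio of palbociclib against untreated (y axis) for the 27 members without and the 20 with an E2F-type match in the promoter window (x axis; sideways spread is for legibility). Points are genes and thick lines are medians, −0.85 without and −1.01 with a match, and POLA2 at −2.44 and CDT1 at 0.07 bound the group with a match.

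ORC binds origin DNA, and its subunits went different ways with palbociclib. ORC6, the smallest subunit, had 692 untreated, 678 siRNA and 743 palbociclib reads, a palbociclib ratio of 1.39 (1.25 to 1.54) and 1.04 with siRNA (0.938 to 1.16). ORC3 had 632, 576 and 236 reads, or 0.483 with palbociclib (0.414 to 0.562). ORC3 was the only one of the 6 subunits past the size rule, and its call was lost with upper quartile factors. ORC5 was just outside the rule at 0.501 (0.443 to 0.565). ORC1, the subunit whose protein is known to be degraded after G1 in human cells, and ORC2 stood at 0.732 (0.664 to 0.807) and 0.731 (0.646 to 0.827). ORC4 was at 1.05 with palbociclib (0.942 to 1.17). With siRNA it was at 0.821 (0.735 to 0.917), the lowest of the subunits. The ORC6 mRNA thus became the most abundant of the 6 per length. Its share of the summed FPKM (reads relative to gene length and library total) of the complex was 20.2% untreated, 21.8% with siRNA and 34.4% with palbociclib.

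The factors that control MCM loading also diverged. CDT1, which carries the helicase to ORC, had 5862, 5817 and 4772 reads and stood at 1.05 of the untreated level with palbociclib (1.01 to 1.09). That direction turned with total counts, where the log2 ratio was −0.12. CDC6, the ATPase that works with CDT1, was at 0.853 with palbociclib (0.801 to 0.908) and 0.968 with siRNA (0.914 to 1.02). GMNN encodes geminin, which binds and blocks CDT1, and had 1320, 862 and 368 reads. It was lower by the size rule with palbociclib at 0.361 (0.32 to 0.405), and at 0.696 with siRNA (0.638 to 0.759) it was the lowest of all 53 members. The siRNA library lay between the untreated and the palbociclib library. A ratio of 2 genes inside 1 library does not depend on how libraries are scaled. The pairs given here and below are the members with the highest and lowest palbociclib ratio of each group or complex. That they diverge with palbociclib therefore follows from the choice. Per length, CDT1 mRNA was 1.73 times GMNN mRNA in the untreated library (1.63 to 1.84), 2.63 times with siRNA (2.45 to 2.83) and 5.05 times with palbociclib (4.54 to 5.63).

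The MCM2 to MCM7 proteins form the helicase ring in equal numbers, yet their mRNAs ranged widely. MCM7 was the most abundant of the 6 in every library, with 312 FPKM untreated, 303 with siRNA and 124 with palbociclib. It was lower by the size rule with palbociclib, at 0.456 (0.443 to 0.469), from 18739, 16443 and 6607 reads. MCM4 had 9095, 7637 and 2359 reads and was also lower, at 0.336 (0.321 to 0.351). MCM2 at 0.567 (0.546 to 0.589), MCM3 at 0.511 (0.488 to 0.536) and MCM6 at 0.539 (0.512 to 0.569) had intervals below 1 without passing the rule. They passed it with total counts. MCM5 stood apart from the other subunits. It had 7354 untreated, 6660 siRNA and 5663 palbociclib reads, a palbociclib ratio of 0.996 (0.962 to 1.03). Inside the libraries MCM5 mRNA was 0.735 of MCM4 mRNA per length in the untreated (0.713 to 0.758), 0.793 with siRNA (0.767 to 0.82) and 2.18 with palbociclib (2.08 to 2.29). In the order of abundance MCM5 moved from place 5 to place 2. With siRNA the 6 ratios lay between 0.853 for MCM6 (0.817 to 0.891) and 1.01 for MCM3 (0.975 to 1.05), and those of MCM2 and MCM5 turned above 1 with total counts.

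**Figure D3:**
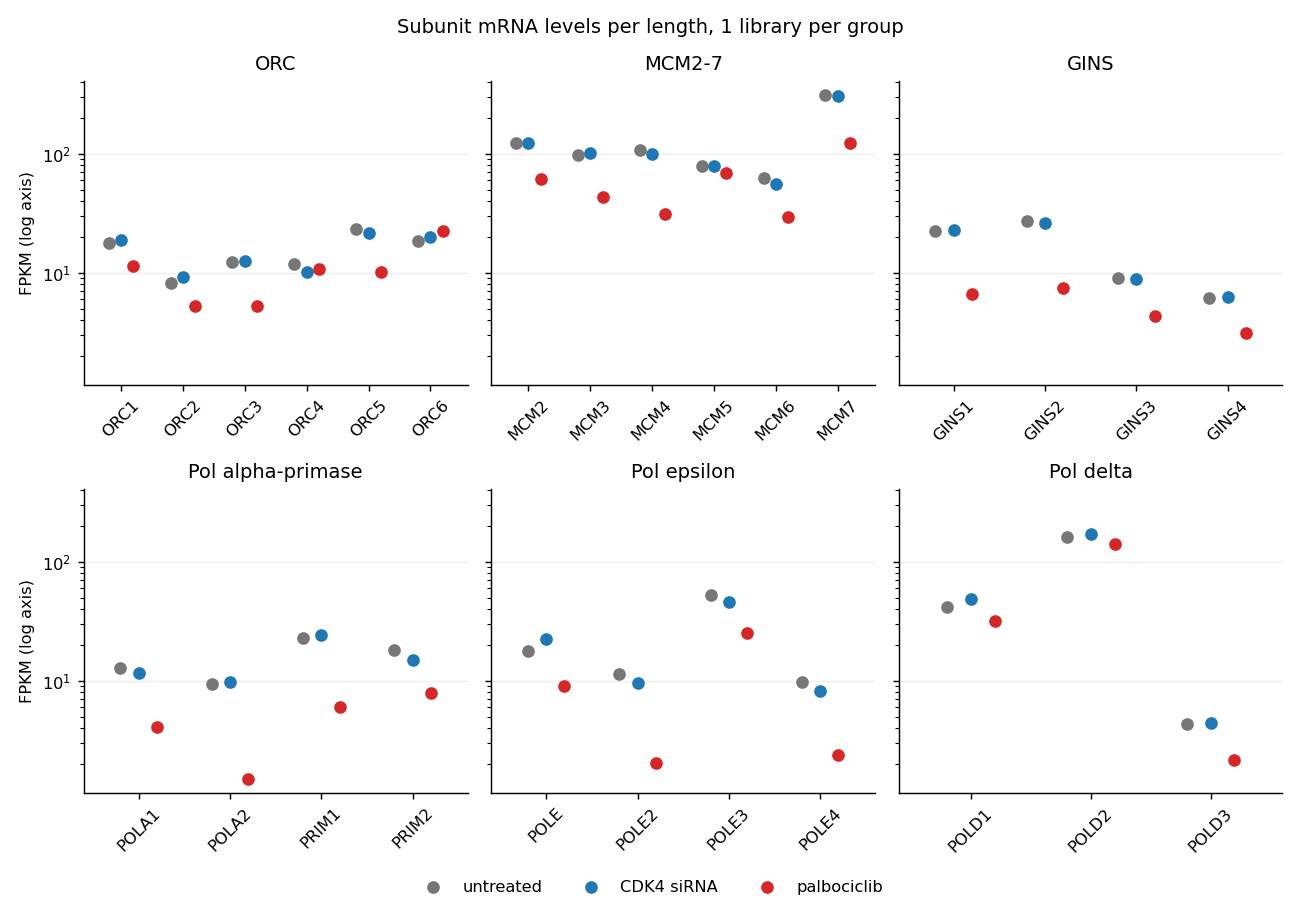
FPKM on a log axis for the subunits of ORC, MCM2-7, GINS and the polymerases alpha, epsilon and delta, with 1 point per library (untreated grey, CDK4 siRNA blue, palbociclib red; FPKM is scaled by library totals). Most red points lie below their grey and blue neighbours, whereas ORC6 lies above them and ORC4, MCM5 and POLD2 lie close to them.

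Genes that fire the loaded helicase were lower with palbociclib as a block. CDC7 encodes the kinase that phosphorylates MCM and had 690, 640 and 225 reads, a palbociclib ratio of 0.422 (0.361 to 0.491). DBF4, its activating subunit, had 1142, 898 and 403 reads and was at 0.457 (0.406 to 0.512). CDC45, which joins MCM and GINS in the active helicase, had 803, 816 and 273 reads and was at 0.44 (0.382 to 0.505). All of these were lower by the size rule. MCM10, which helps to activate the assembled helicase, had 1800, 1547 and 698 reads and was just outside the rule at 0.502 (0.459 to 0.548). The log2 ratios of the 4 genes spanned only −1.24 to −0.99, a narrow range beside that of ORC, −1.04 to 0.47. With siRNA, DBF4 at 0.838 (0.767 to 0.916) and MCM10 at 0.916 (0.856 to 0.981) had intervals below 1, and CDC7 and CDC45 did not.

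The 4 GINS genes, whose proteins form 1 tetramer, split in pairs. GINS2 had 1490, 1291 and 359 reads and GINS1 had 1474, 1366 and 392. Both were lower by the size rule with palbociclib, at 0.312 (0.277 to 0.35) and 0.344 (0.307 to 0.385). GINS3 at 0.552 (0.474 to 0.64) and GINS4 at 0.588 (0.499 to 0.691) were not, and these 2 are also the less abundant mRNAs, GINS4 with 482, 449 and 219 reads. The intervals of the pairs did not overlap. GINS4 mRNA was 0.223 of GINS2 mRNA per length in the untreated library (0.201 to 0.248), 0.24 with siRNA (0.215 to 0.267) and 0.421 with palbociclib (0.354 to 0.499).

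The lowest members of all belong to the polymerases that start and lead DNA strands. Polymerase alpha-primase makes the RNA-DNA primers. POLA2, its regulatory subunit, had 718, 676 and 101 reads and stood at 0.182 with palbociclib (0.146 to 0.224) and at 1.00 with siRNA (0.902 to 1.12). PRIM1, the catalytic primase subunit, had 652, 616 and 151 reads and was at 0.3 with palbociclib (0.249 to 0.358). POLA1, the catalytic polymerase subunit, had 1416, 1177 and 402 reads and was at 0.367 (0.328 to 0.411). The large primase subunit PRIM2 was just outside the rule at 0.501 (0.439 to 0.57), from 837, 633 and 324 reads, and at 0.806 with siRNA (0.726 to 0.895). PRIM2 mRNA became the most abundant of the 4 per length. The POLA2 and PRIM1 exons share 2012 and 362 bases with other genes of the same strand, AP000944.2 and AC117378.1, in GENCODE 29. Neither of these names occurs among the counted symbols, so whether the overlap affected the reads is not known. PRIM1 also shares 33 bases with NACA on the same strand.

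Polymerase epsilon copies the leading strand. POLE2, a non-catalytic subunit, had 413, 316 and 66 reads and a palbociclib ratio of 0.207 (0.157 to 0.269). POLE4, one of the small histone-fold subunits, had 248, 188 and 54 reads and was at 0.282 (0.206 to 0.379). Both were lower by the size rule, and both also had siRNA intervals below 1, at 0.816 (0.702 to 0.947) and 0.808 (0.665 to 0.981). The catalytic subunit POLE was at 0.577 with palbociclib (0.54 to 0.616). With siRNA it was at 1.2 (1.14 to 1.26), the highest siRNA ratio of the 53 members, from 2912, 3283 and 1299 reads. POLE3, the histone-fold partner of POLE4, was at 0.556 (0.518 to 0.597) with palbociclib and remained the most abundant of the 4 at 52.3, 45.7 and 25.3 FPKM.

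Polymerase delta, which copies the lagging strand, held no member past the rule. POLD2 had 7010, 6716 and 5479 reads and was at 1.01 with palbociclib (0.976 to 1.05). The catalytic subunit POLD1 had 2942, 3098 and 1986 reads. With palbociclib it was at 0.873 (0.825 to 0.925) and, with siRNA, at 1.12 (1.07 to 1.18). POLD3 had 337, 310 and 150 reads and was the lowest at 0.576 (0.472 to 0.7). POLD2 mRNA was 36.8 times POLD3 mRNA per length in the untreated library (33 to 41.2), 38.4 times with siRNA (34.2 to 43.1) and 64.7 times with palbociclib (55 to 76.6). This was the widest span of any complex described here, in each of the libraries.

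Among the clamp and its loader, RFC2 and RFC5 were lower by the size rule. PCNA, the sliding clamp, had 6251, 6032 and 2984 reads and was at 0.618 with palbociclib (0.591 to 0.645). RFC5 had 2208, 1682 and 564 reads, or 0.33 with palbociclib (0.301 to 0.363) and 0.812 with siRNA (0.762 to 0.866). RFC2 had 1649, 1441 and 533 reads, or 0.418 with palbociclib (0.379 to 0.461). The remaining loader subunits RFC3 and RFC4 were at 0.642 (0.573 to 0.718) and 0.698 (0.634 to 0.769), and the large subunit RFC1, with 2383, 2050 and 1468 reads, was at 0.797 (0.746 to 0.851). RFC1 mRNA was less abundant per length than RFC5 mRNA in the untreated library, at 0.539 of it (0.509 to 0.572), and more abundant with palbociclib, at 1.3 times (1.18 to 1.44).

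RPA coats single-stranded DNA. Of its subunit genes, RPA1, the largest, was at 0.822 with palbociclib (0.783 to 0.863), RPA2 was at 0.684 (0.634 to 0.738) and RPA3, the smallest, was at 0.289 (0.238 to 0.348). RPA3 alone passed the size rule, from 609, 522 and 136 reads, while RPA1 had 4255, 4239 and 2705. RPA1 mRNA was 3.25 times RPA3 mRNA per length in the untreated library (2.99 to 3.55) and 9.26 times with palbociclib (7.79 to 11.1).

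For lagging strand processing, LIG1, the ligase that joins Okazaki fragments, had 1961, 1936 and 629 reads and was lower by the size rule at 0.415 (0.379 to 0.454). FEN1, the flap nuclease that acts before it, had 3937, 3533 and 2047 reads and was at 0.673 (0.637 to 0.71). Neither had a siRNA interval apart from 1.

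Fork protection genes were all below the untreated level with palbociclib. CLSPN encodes claspin, a mediator of the replication checkpoint, and had 1533, 1378 and 406 reads, a ratio of 0.343 (0.306 to 0.382). WDHD1, which tethers polymerase alpha to the helicase, was at 0.367 (0.328 to 0.41), from 1437, 1135 and 408 reads. These 2 were lower by the size rule. TIMELESS at 0.552 (0.511 to 0.595) and its partner TIPIN, with 620, 497 and 272 reads, at 0.568 (0.49 to 0.656) had almost equal palbociclib ratios, outside the rule. With siRNA they were apart, TIMELESS at 1.04 (0.976 to 1.1) and TIPIN at 0.855 (0.758 to 0.963). The CAF-1 chromatin assembly subunits were close to each other with palbociclib, CHAF1A at 0.55 (0.516 to 0.587) and CHAF1B at 0.596 (0.534 to 0.664). CHAF1A had 3139, 2671 and 1335 reads, and CHAF1B had 1064, 850 and 490. Their mRNA ratio per length was 0.494 without treatment (0.46 to 0.53), 0.464 after siRNA (0.429 to 0.501) and 0.535 after palbociclib (0.481 to 0.593), with overlapping intervals.

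DTL and UNG lie outside these complexes. DTL, the substrate receptor of the ubiquitin ligase that marks CDT1 for destruction, had 1237, 1034 and 645 reads and was at 0.675 with palbociclib (0.612 to 0.743). UNG encodes the uracil DNA glycosylase that removes uracil from DNA. It had 1981 untreated, 2077 siRNA and 2226 palbociclib reads, the highest palbociclib ratio of the members at 1.45 (1.37 to 1.55), and 1.12 with siRNA (1.05 to 1.19). UNG and CDT1 alone had intervals above 1 in both treated libraries, CDT1 only by a small margin. The comparisons share the untreated library.

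**Figure D4:**
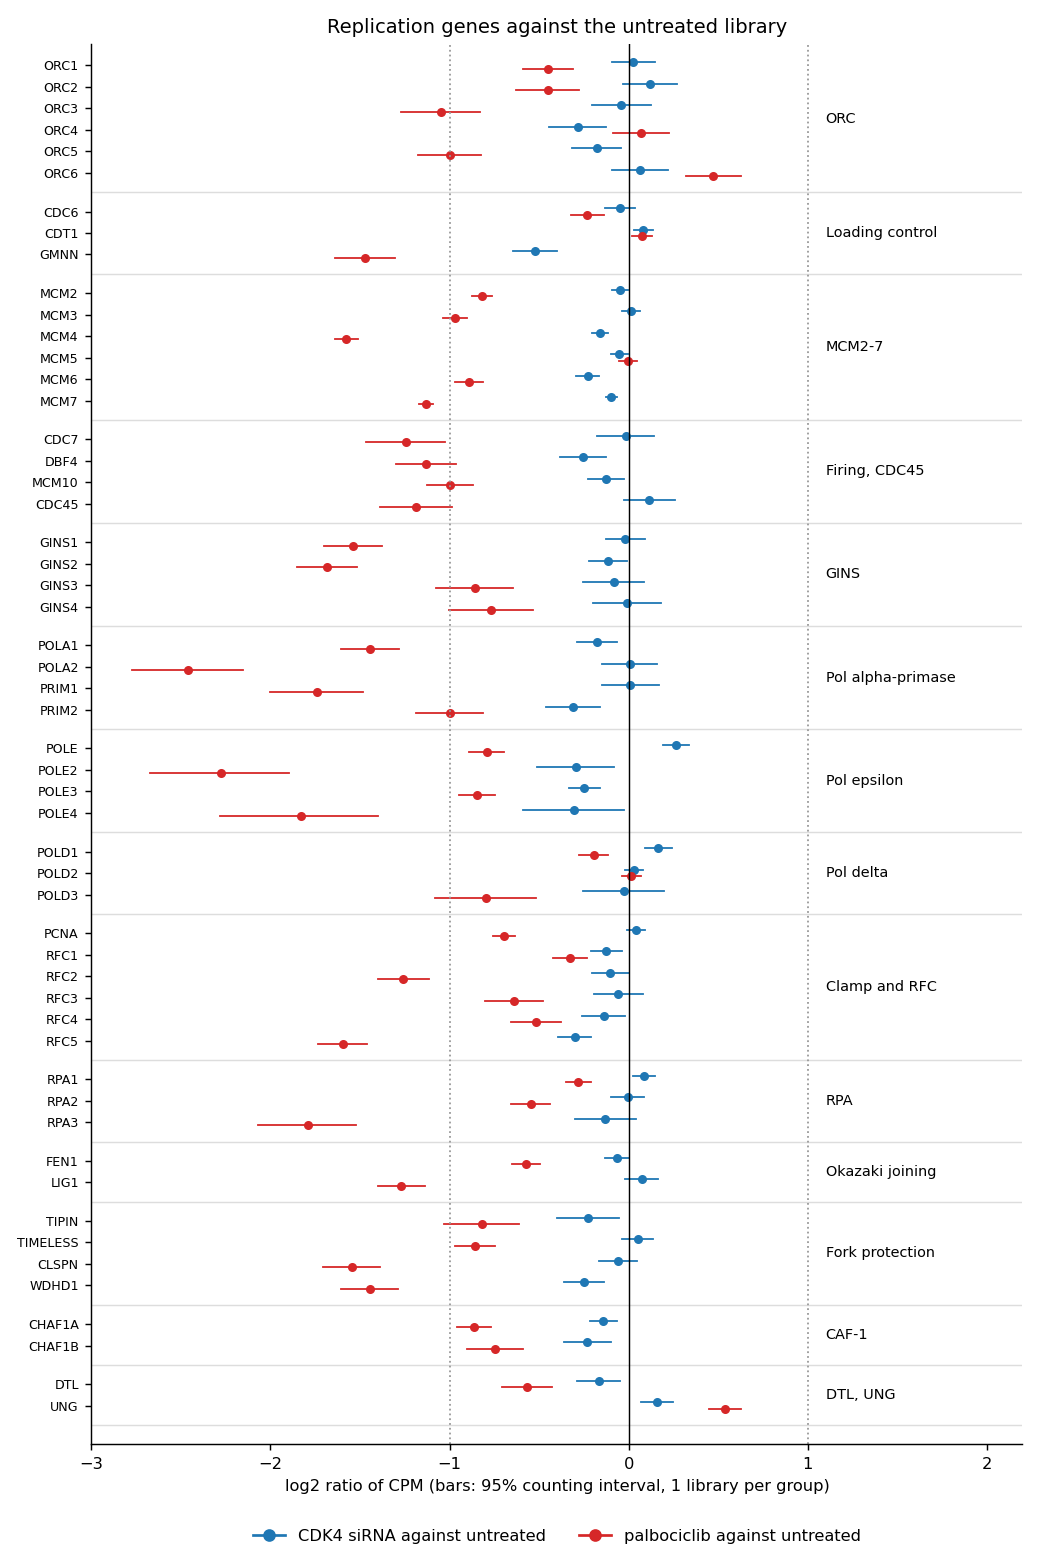
Log2 ratio of CPM without a prior count (x axis) for each of the 53 genes (y axis, grouped by complex) with siRNA (blue) and palbociclib (red) against the untreated library; bars are 95% counting intervals and dotted lines mark a log2 ratio of −1 and 1. Blue points lie between GMNN at 0.696 and POLE at 1.2 of the untreated level, and red points spread from POLA2 at 0.182 to UNG at 1.45 of the untreated level.

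The direct comparison of the treated libraries uses the same palbociclib library, so its values are not independent of those above. Against siRNA, palbociclib had 19 members past the size rule, all lower, or 35.8%, where 13.8% of all genes were lower and 8.76% higher. The intervals of 47 members lay below 1 and of 3 above, against 41.4% and 35.8% of all genes. With total counts or FPKM 29 members were lower, beside 20.9% and 21.3% of all genes. The median log2 ratio was −0.77 for the members and −0.08 for all genes. The lowest members here were POLA2 at 0.181 of the siRNA level (0.146 to 0.224) and POLE2 at 0.253 (0.191 to 0.331). POLE was lower here, at 0.48 (0.45 to 0.512), and this call, with those of ORC3 and MCM7, was lost with DESeq2 size factors and with upper quartile factors. GMNN at 0.518 (0.457 to 0.586) and DBF4 at 0.545 (0.483 to 0.613) were not past the rule here. Intervals above 1 were seen for ORC6 at 1.33 (1.2 to 1.48), UNG at 1.3 (1.22 to 1.38) and ORC4 at 1.28 (1.14 to 1.44).

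The palbociclib ratios were also set beside the level of the mRNA. Ordered by FPKM in the siRNA library, which that ratio does not use, the 18 most abundant members had a median log2 ratio of −0.63 with 3 lower by the size rule. The 17 in the middle had −0.99 with 7 lower, and the 18 least abundant −1.09 with 10 lower. Of all genes compared 13.6% were lower, a share that the most abundant members come close to. The Spearman correlation across the 53 genes was 0.274, against −0.02 across 12685 genes; genes are not independent replicates, and all values share the same libraries.

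**Figure D5:**
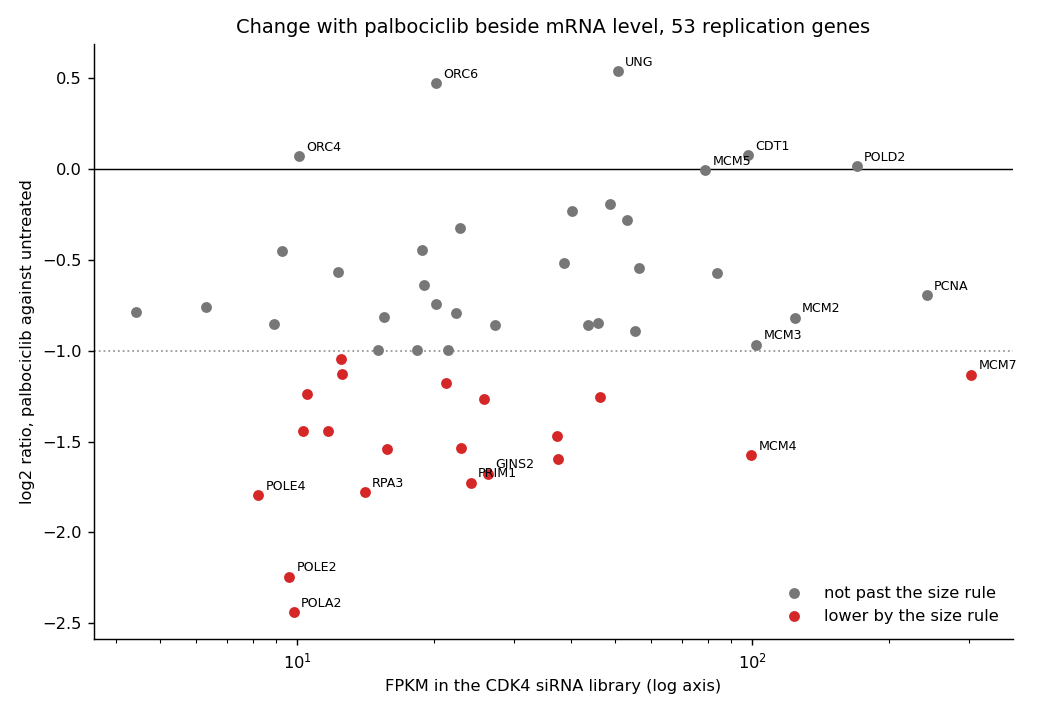
Log2 ratio of palbociclib against untreated (y axis) beside FPKM in the siRNA library (x axis, log scale) for the 53 members, with those lower by the size rule in red and the dotted line at a log2 ratio of −1. POLA2 and POLE2, the lowest, have under 10 FPKM, while PCNA, POLD2 and MCM7 above 160 FPKM range from −1.13 to 0.02.

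Other genes of replication were also mostly below the untreated level with palbociclib. A list of 60 genes outside the 53 covered firing factors, clamp loaders, RNase H2, topoisomerases, histone chaperones, the fork checkpoint and replisome unloading, and 58 of them had enough reads. The list was chosen with earlier results of these data known and uses the same libraries, so it is no independent set. With palbociclib 19 of the 58 passed the size rule, all lower, or 32.8%, where 13.6% of all genes were lower and 10% higher. Their median log2 ratio was −0.60, against −0.07 for all genes. The furthest were SKP2, a ubiquitin ligase receptor for CDT1 and p27, at 0.185 of the untreated level (0.163 to 0.21), and the fork protection gene DONSON at 0.216 (0.172 to 0.269). The PCNA-binding factor PCLAF, listed under its older name KIAA0101, was at 0.266 (0.233 to 0.303) and the clamp loader subunit DSCC1 at 0.271 (0.238 to 0.308). TOP2A, a topoisomerase of dividing cells, was at 0.311 (0.294 to 0.328), the chromatin remodeller HELLS at 0.324 (0.287 to 0.365), the RNase H2 catalytic subunit RNASEH2A at 0.329 (0.298 to 0.364) and the translesion polymerase POLH at 0.35 (0.298 to 0.411). By contrast, TOP1 at 0.989 (0.955 to 1.02) and TOP2B at 0.985 (0.934 to 1.04), the topoisomerases that are not tied to division, had intervals that include 1. The intervals of 42 of the 58 lay below 1 and those of 7 above, or 72.4% and 12.1%, against 41.9% and 36% of all genes. Those 7 were the translesion polymerase POLK at 1.46 (1.2 to 1.77), the unfoldase VCP at 1.42 (1.38 to 1.47), its cofactor UBXN7 at 1.4 (1.29 to 1.5), the replication timing factor RIF1 at 1.32 (1.23 to 1.42), the checkpoint clamp loader subunit RAD17 at 1.31 (1.16 to 1.49), the fork remodeller ZRANB3 at 1.28 (1.05 to 1.57) and the clamp loader subunit CHTF8 at 1.26 (1.13 to 1.42). TOP1, TOP2B and these 7 were named after their values were seen. With siRNA none of the 58 passed the rule, where 0.118% of all genes were lower and 1.1% higher, and their median log2 ratio was −0.05.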

How the data were processed

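RNA from 3 HCT116 cultures was sequenced, 1 library per group, and columns were matched to groups by library title. The authors deposited raw read counts per gene and FPKM per gene. The submitters' processing notes name build hg19, HTSeq 0.6.1 and DESeq; aligner, annotation and strand setting: not given in the sources used here. The deposited FPKM equals the counts rescaled by gene length and library total (largest relative deviation 9e-12 over 16938 genes), so it is no independent measurement. Whether a read was kept apart from an antisense or overlapping gene is not known. In GENCODE 29 (GRCh38) 23 of the 53 members share exon bases with another gene on either strand.

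Of 48162 entries, the row with most reads was kept for each symbol. Counts were scaled with TMM factors (edgeR 4.0.16, R 4.3.3) and ratios were given exact Clopper-Pearson intervals (SciPy 1.17.1) at the 95% level; the interval code was tested on simulated data. Intervals cover counting error only, since they are computed from the counts of 1 library per group. Reads were not collapsed by molecular identifiers as far as the labels say, so the intervals may be too narrow even for that error. With 1 library per group no p-value was computed. Pairs of subunits set side by side inside a library are the members with the highest and lowest palbociclib ratio of each complex, so their divergence with palbociclib is a description. Read counts are printed for those extremes, for members past the size rule in a complex with others that are not, and for the extremes with siRNA; a few more are given for context. Alternatives were total counts, DESeq2 1.42.0 size factors, upper quartile factors, FPKM, other filters, another prior count, summed rows and a 1.5-fold rule. The members and lists were chosen with earlier results of these data known. Promoter windows are from RefSeq, build GRCh38.p14, matched by symbol.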

Additional observations from a re-analysis of the deposited data

How the results depend on the processing

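The counts and medians for the members were recomputed under each alternative. For palbociclib against untreated, 31 members were lower by the size rule with total counts and 31 with FPKM, in place of 20, and the 20 were among them; the additional 11 were ORC5, MCM2, MCM3, MCM6, MCM10, GINS3, PRIM2, POLE3, TIPIN, TIMELESS and CHAF1A. The median log2 ratio was then −1.06 with total counts, −1.06 with FPKM and −0.74 with upper quartile factors, in place of −0.86. A 1.5-fold rule gave 37 lower members. The share of all genes lower, in place of 13.6%, was 19.1% with total counts, 19.6% with FPKM and 25.3% with the 1.5-fold rule. With upper quartile factors it was 11.1%. For palbociclib against siRNA, 29 were lower with total counts and 29 with FPKM, in place of 19, with medians of −1.02 and −1.02 in place of −0.77, and a 1.5-fold rule gave 35; the shares of all genes lower were 20.9%, 21.3% and 25.8%, in place of 13.8%. DESeq2 size factors and upper quartile factors each lost ORC3, MCM7 and POLE in that comparison. No setting gave a member higher by the 2-fold rule. Single values that turned were CDT1 with palbociclib, at a log2 ratio of −0.12, and MCM2 and MCM5 with siRNA, at 0.0064 and 0.0037, each with total counts and with FPKM. These follow from the construction of the scalings, which move all genes of a library together. Mean CPM of at least 5, no filter, a prior count of 0.5 and summed rows left all 159 single ratios of members inside their counting intervals. For the filters and the summed rows this was fixed in advance. A filter enters no ratio, and every member is on a single row. A smaller prior count changes little at the read numbers of the members. These settings are therefore no check of the single ratios. No paired analysis was possible because each group has 1 library. Depth limits the rarest members, POLE4 and POLE2, which had 54 and 66 reads with palbociclib.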
